A study of Drosophila melanogaster with 2 samples.

Results

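Of the 3033 regions that passed IDR in fu2-GFP chromatin, 251 (8.28%, exact 95% interval 7.32 to 9.31) had their summit between genes, in no annotated gene and more than 500 bp from every transcript start. IDR, the irreproducible discovery rate, keeps regions whose ranks hold up across replicates. The members were chosen on the summit position alone, with Ensembl BDGP6 genes and without transposable elements, and no signal or sequence entered the choice. The data are ChIP-seq peak lists from whole Drosophila melanogaster embryos of mixed sex, 0 to 24 h old. The transgenic line expresses fu2 with GFP at its C terminus, its insertion is labelled as targeting prg, of which fu2 is a listed synonym, and an anti-GFP antibody was used. The labels do not state which promoter drives the fusion. There was 1 group, fu2-GFP, with biological replicates 2 and 3, and the chromatin was sonicated to 200 to 800 bp. No reads, unfused GFP or input libraries were analysed here, so depth and background are unknown. Whole embryos mix all tissues, so more cells carrying a site and more signal per cell cannot be told apart.

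Sequence between genes holds enhancers, silencers and insulators as well as unannotated starts of transcription, and in the compact fly genome much of it lies within a few kilobases of a promoter. A transcription factor fused to GFP can be recovered from such sites by direct binding to DNA or through other bound proteins, and ChIP-seq does not separate these. ChIP-seq regions are ranked here by the signal value the authors deposited, a measure of how far a region stands above its background, and signal values were compared only within a list. The 3033 IDR peaks were exactly the 3033 strongest of the 30000 regions of the list made from both replicates pooled. A listed region that passed IDR is thus also one with a signal value of at least 62.5. The authors label the pooled list as peaks and background for input to IDR, so a listed region need not be a binding site.

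The 5 strongest members on 2L, 3L, 3R, 4 and X are shown first, and all of them lie on 3R or 2L. Of the 5 strongest members of all, 3 lie on the remaining arm and are described below by position and value, without sequence. None of the 32 short words searched below was found in all 5. Each line gives the 101 bases centred on the summit, 5′ to 3′ on the plus strand of dm6. Capitals mark the words AAGATT and TGCATA or their reverse complements, which the comparisons of word content below turn on.
Upstream of lncRNA:CR45643, chr3R:16222435-16222535: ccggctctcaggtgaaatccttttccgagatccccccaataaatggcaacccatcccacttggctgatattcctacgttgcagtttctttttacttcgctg
Between Atg13 and stck, chr3R:8355668-8355768: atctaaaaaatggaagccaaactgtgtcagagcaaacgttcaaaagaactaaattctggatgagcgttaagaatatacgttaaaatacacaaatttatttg
Between C15 and sp3, chr3R:21520329-21520429: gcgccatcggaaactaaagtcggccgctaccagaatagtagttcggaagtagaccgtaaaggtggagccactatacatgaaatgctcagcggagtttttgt
Between RFeSP and chinmo, strongest, chr2L:1638832-1638932: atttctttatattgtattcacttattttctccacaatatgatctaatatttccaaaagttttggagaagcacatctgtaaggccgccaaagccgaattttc
Between lncRNA:CR45643 and tara, chr3R:16224446-16224546: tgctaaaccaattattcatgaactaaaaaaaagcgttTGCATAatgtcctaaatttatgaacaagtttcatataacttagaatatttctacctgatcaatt
Only the last of these 5 held either word. The GC content of the windows lay at 48.5%, 30.7%, 48.5%, 32.7% and 25.7% in the order shown. A second set holds the strongest members of the same chromosomes with AAGATT within 50 bp of the summit.
Between RasGAP1 and CG10809, chr3L:9855957-9856057: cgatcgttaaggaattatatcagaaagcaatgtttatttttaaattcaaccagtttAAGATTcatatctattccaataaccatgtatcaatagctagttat
Between CG43131 and RabGGTa, chr3R:5113251-5113351: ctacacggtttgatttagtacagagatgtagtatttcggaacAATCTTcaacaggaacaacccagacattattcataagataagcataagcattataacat
Between lncRNA:CR45355 and CG31816, chr2L:16535970-16536070: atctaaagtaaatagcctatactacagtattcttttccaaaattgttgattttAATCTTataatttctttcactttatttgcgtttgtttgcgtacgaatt
Between ph-d and ph-p, chrX:2123978-2124078: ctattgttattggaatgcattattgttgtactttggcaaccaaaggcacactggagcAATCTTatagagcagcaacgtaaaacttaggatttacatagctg
Between RFeSP and chinmo, weaker, chr2L:1643344-1643444: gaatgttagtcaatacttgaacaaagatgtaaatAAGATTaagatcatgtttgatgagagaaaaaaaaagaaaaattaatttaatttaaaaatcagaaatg
The word stood on the plus strand in the RasGAP1 site and in the second RFeSP to chinmo site, and as AATCTT in the other 3. Each window held 1 match. These 5 members ranked between 314 and 692 among the IDR peaks, below all 5 of the first set.

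The signal of the intergenic peaks was lower than that of the remaining IDR peaks. Their median signal value was 86.7 (95% interval 80.9 to 96.1, n = 251), against 97.95 (95.5 to 100.3, n = 2782) for the IDR peaks elsewhere. Their median percentile among IDR peaks was 40.04 (32.9 to 49.2), against 50.7 (48.7 to 52.6). The intervals of the medians of the signal overlap only between 95.5 and 96.1. Peaks within 500 bp of a transcript start had a median of 99.6 and peaks in gene bodies 94.7. The range was wide, and intergenic values ran between 62.6 and 752. There were 3 members among the 100 strongest IDR peaks, 32 among the strongest 500 and 70 among the strongest 1000. These were 1.195%, 12.75% and 27.89% of the members, against 3.487%, 16.82% and 33.43% of the other IDR peaks. The intervals of these shares overlap at all 3 limits.

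The strongest member lay at chr2R:13035162-13035524, in the 36783 bp between Su(z)2, a Polycomb group gene, and CG13323. It had a signal value of 752 in the pooled list, 295 in replicate 2 and 452 in replicate 3. It was 22nd of all IDR peaks, and it lay 11916 bp from the nearest start. A weaker member in the same gap, at chr2R:13008185-13008588, had 70.8 in the pooled list, 30.3 in replicate 2 and 39.5 in replicate 3. The first was the highest of all members and the second was in the lower part of the range, in both replicates. A further pair of members stood between CG13321 and Psc, the Polycomb group relative of Su(z)2, with pooled signal values of 156 and 63.4.

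The second strongest member, at chr3R:16222331-16222647, had a signal value of 611 in the pooled list, 238 in replicate 2 and 367 in replicate 3. It lay 910 bp upstream of the start of lncRNA:CR45643, a non-coding RNA gene. On the other side of that gene, at chr3R:16224370-16224652, stood the eighth member, with 314 in the pooled list, 128 in replicate 2 and 191 in replicate 3. It lies between lncRNA:CR45643 and tara, a transcriptional coregulator gene. The 2 peaks flank 1 short non-coding gene in the 20400 bp between the coding genes mtSSB and tara.

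The third by signal was chr2R:22802813-22803111, in the 1340 bp where blw, the ATP synthase alpha subunit gene, and CycB, the Cyclin B gene, end towards each other. Its signal values were 448 in the pooled list, 168 in replicate 2 and 282 in replicate 3. The fourth, between the autophagy gene Atg13 and the focal adhesion gene stck, had 369 in the pooled list, 157 in replicate 2 and 209 in replicate 3. The fifth, 657 bp upstream of CG14762, had 359.5, 131 and 224 in the same order of lists. The sixth, between the homeobox gene C15 and sp3, lay 549 bp upstream of sp3 and had 358, 146 and 210. All 20 strongest members ranked 519th or better in replicate 2 and 466th or better in replicate 3. Others among these 20 lay at Slob, foxo, Crtc, Atf3, RasGAP1, Cpr76Ba and Glut4EF.

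**Figure D1:**
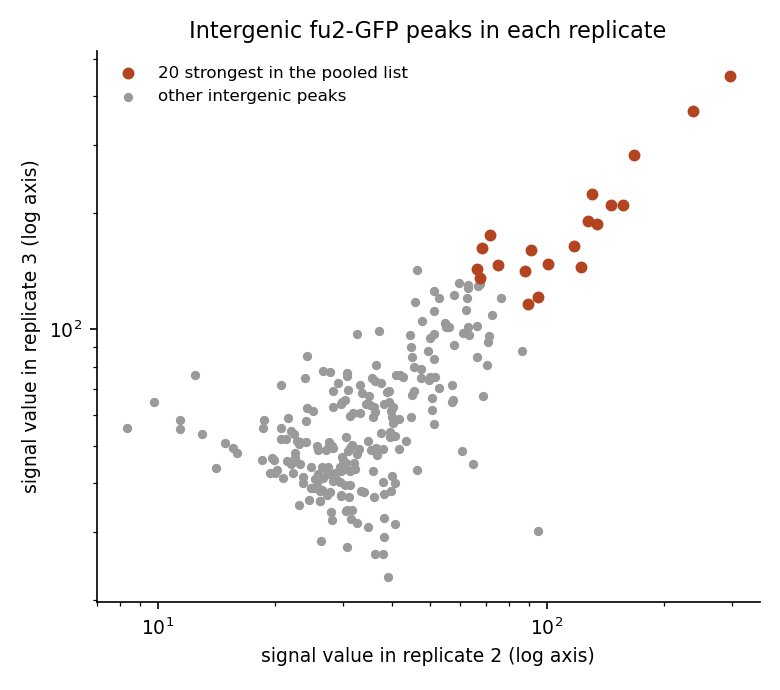
Signal value of each intergenic peak in replicate 2 (x axis, log) and replicate 3 (y axis, log), 250 peaks listed in both. The 20 strongest of the pooled list are marked, and the peaks fall along 1 band with a few that are high in 1 replicate only.

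Both replicates listed 250 of the 251 members and 2779 of the 2782 other IDR peaks. The IDR peaks were selected with these lists, so such shares were largely built in. The remaining member, 539 bp from CG13287, was listed in replicate 2 alone at 26.3. Members had a median rank of 1762 in replicate 2 (1577 to 2029) and of 1792 in replicate 3 (1527 to 2043). Spearman's rho between the replicate signal values over the 250 regions was 0.611, given as a description over regions of the same 2 libraries and the same pooled selection. Summits in the replicates lay a median of 27 bp apart (22 to 32), against 26 bp (25 to 28) for the other IDR peaks.

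A smaller share of the intergenic peaks was among the 3033 strongest regions of both replicates, 173 of 251 or 68.9% (62.8 to 74.6), against 2177 of 2782 or 78.25% (76.7 to 79.8). The difference was -9.33 percentage points (Newcombe 95% interval -15.5 to -3.70). Replicate 2 held 84.5% of the intergenic peaks and 85.9% of the others. Replicate 3 held 83.7% (78.5 to 88.0) and 91.5% (90.4 to 92.5), and these intervals do not overlap. Beyond rank 2000 of the pooled list the shares in both were 33.3% (24.8 to 42.8) of 114 members and 42.1% (38.9 to 45.4) of 919 others, with overlapping intervals. Between ranks 1000 and 2000 the order was the other way, 97.0% (89.6 to 99.6) of 67 members and 92.4% (90.5 to 94.0) of 933 others, also with overlapping intervals, and among the first 1000 the shares were 100% of 70 and 99.8% of 930. The lower share over all members was thus not found at every rank, and members were more often of low rank. By the ratio of the ranks the most discordant member was at CG9743, next to RpS7, which ranked 222nd in replicate 2 and 4711th in replicate 3. The next by this ratio, at Cyp6v1, a cytochrome P450 gene, ranked 23264th in replicate 2 and 1832nd in replicate 3, which is the largest difference of ranks. Both lie among the weakest members in the pooled list, at 66.85 and 62.99.

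Intergenic peaks were sparse for the sequence they had. The intergenic territory, all bases of the main arms in no gene and more than 500 bp from a start, was 36.5 Mb or 27.2% of the arms, and it held 6.88 members per Mb (exact Poisson 95% interval 6.06 to 7.79). Gene bodies held 10.7 per Mb (10 to 11.5) and the 500 bp around starts 106.5 per Mb (102 to 111). The 3033 strongest regions of replicate 2 alone held 259 intergenic ones (8.54%) and those of replicate 3 alone 233 (7.68%), a mean of 8.11% ± 0.606 (SD, n = 2). Of the 4206 intergenic regions of the pooled list, 251 passed IDR, or 5.97% (5.27 to 6.73), against 2782 of the 25794 listed elsewhere, or 10.8% (10.4 to 11.2). The difference was -4.82 percentage points (-5.60 to -3.97), and 10.1% of all listed regions passed. Listed regions near starts passed in 19.1% and those in gene bodies in 5.42% (5.07 to 5.79), an interval that overlaps the intergenic one.

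Within the territory the members clustered towards starts. Between 500 and 1000 bp of the nearest start the density was 23.7 per Mb (18.4 to 30.1, 67 peaks), and between 1000 and 2000 bp it was 12.7 per Mb (9.65 to 16.4, 58 peaks). Between 2000 and 5000 bp it was 7.80 per Mb (6.08 to 9.86, 70 peaks), and between 5000 and 10000 bp 5.02 per Mb (3.52 to 6.95, 36 peaks). Beyond 10000 bp 20 peaks remained, at 1.55 per Mb (0.945 to 2.39). Listed intergenic regions that overlap no IDR peak thinned out as well. There were 553 of them in the 2.825 Mb of the nearest bin and 513 in the 12.93 Mb beyond 10000 bp. The share of listed regions that passed, leaving out regions that overlap an IDR peak, took the same order, at 10.8%, 7.08%, 5.03%, 4.48% and 3.75%. The median distance of the members was 2003 bp (1694 to 2381), against 3160 bp (3037 to 3291) for the 3917 weaker intergenic regions. Weaker intergenic regions are those between genes in the pooled list that share no base with an IDR peak. By the label of the list they include background, so they are not a set of weaker binding sites. The median signal value of the members took the order of the densities over the first 4 bins, at 92.8, 87.4, 83.3 and 79.2. It was 96.3 in the 20 peaks beyond 10000 bp.

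**Figure D2:**
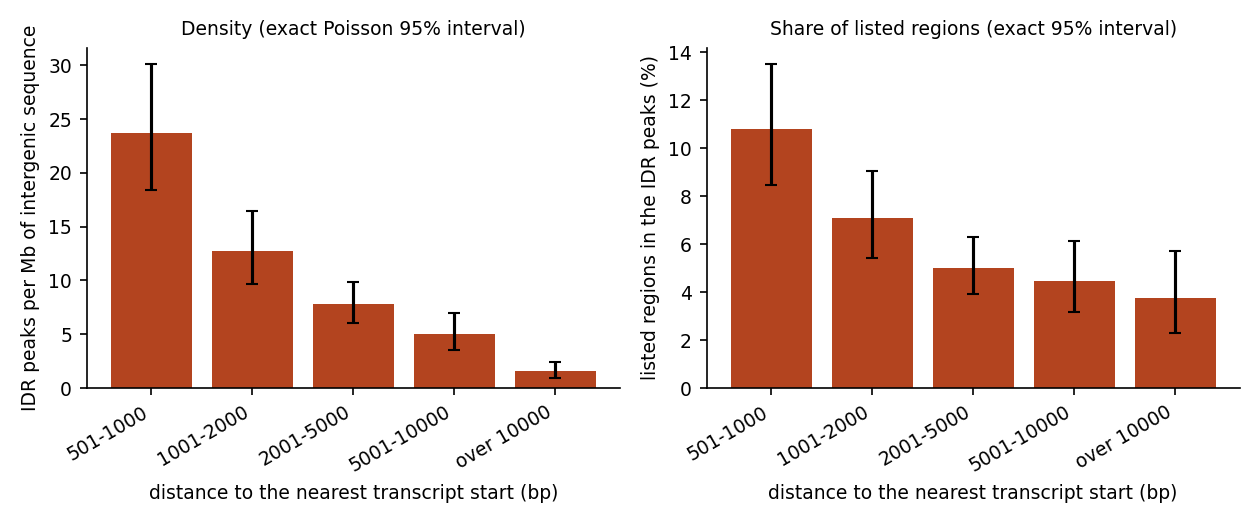
Left, intergenic IDR peaks per Mb of intergenic sequence, and right, share of listed intergenic regions that passed IDR, by distance of the summit from the nearest transcript start. Bars give the value and lines the 95% interval; density falls to 1.55 per Mb beyond 10000 bp, against 23.7 per Mb in the nearest bin.

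The limit of 500 bp cuts through a continuum. The 2 members nearest to it lay 503 bp from CG3348 and 506 bp from Cyp28d1, with signal values of 89.1 and 70.3. The 2 peaks just inside it lay 500 bp from CG5973 and 495 bp from lncRNA:CR44828, with 94.9 and 97.8. There were 23 members over 500 and up to 600 bp from a start, and 28 gene-free peaks over 400 and up to 500 bp that are not members.

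By chromosome arm, the density was 10.3 per Mb on 2L (7.996 to 13.0, 69 peaks), 4.84 on 2R (3.39 to 6.69, 36 peaks), 7.93 on 3L (6.21 to 9.99, 72 peaks), 4.95 on 3R (3.51 to 6.80, 38 peaks) and 6.03 on X (4.12 to 8.51, 32 peaks). The intervals of 2L and of 2R do not overlap, nor do those of 2L and 3R. Listed intergenic regions also differed by arm, at 134 per Mb on 2L, 90.25 on 2R and 123 on 3R. The shares of them that passed were 7.66%, 5.36% and 4.02%, leaving out regions that overlap an IDR peak. Chromosome 4, with 4 peaks, had an interval of 4.44 to 41.8. By gap length, gaps under 5 kb held 20.5 members per Mb (16.6 to 25.1, 95 peaks), gaps of 5 to 20 kb 8.04 (6.59 to 9.71, 107 peaks) and longer gaps 2.65 (1.957 to 3.498, 49 peaks). These 3 intervals do not overlap. Short gaps lie near starts by construction, so gap length and distance from a start are not separate measures.

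The genes on both sides pointed away from each other at 76 members (30.3%, 24.7 to 36.4), the same way at 124 and towards each other at 51. Per Mb of territory this was 10.3 (8.10 to 12.9) in divergent, 6.73 (5.60 to 8.03) in tandem and 5.49 (4.09 to 7.22) in convergent gaps. Divergent gaps stood above both other kinds without overlap of the intervals. A divergent gap has a gene start at each end, so orientation and distance from a start are not separate measures. The share of listed regions that passed was 6.93% in divergent, 5.97% in tandem and 5.13% in convergent gaps. Weaker intergenic regions were divergent in 26.04%, inside the members' interval. A summit within 500 bp of a gene's 3′ end occurred in 36 members (14.3%, 10.25 to 19.3) and in 383 weaker intergenic regions (9.78%, 8.87 to 10.75), a difference of 4.57 percentage points (0.64 to 9.52). Short gaps lie near gene ends by construction, so this difference and gap length are not separate measures.

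Some members shared gaps. The 251 members lay in 219 gaps between annotated genes of any kind. Of these gaps 194 held 1 member and 25 held more than 1, and 57 members shared their gap with another. By protein-coding genes alone the members lay in 204 gaps. Another IDR peak lay within 2000 bp of 19.9% of the members (15.2 to 25.4), fewer than the 28.6% of the other IDR peaks (26.9 to 30.3). The largest group was the 37097 bp between RFeSP, the Rieske iron-sulfur protein gene of the respiratory chain, and chinmo, a BTB zinc finger gene known for setting neuronal temporal identity. It held 7 members. Of these, 5 lay between lncRNA:CR44603 and lncRNA:CR45695, with pooled signal values of 95.6, 177, 192, 319.5 and 151 from left to right. Replicate 2 gave 36.2, 62.2, 62.7, 135 and 51.3 for the same 5, and replicate 3 gave 60.98, 112, 128, 187 and 112. Both replicates placed the highest value at chr2L:1638769-1638991, shown above. The other two, at 71.9 and 67.0, lay outside these non-coding genes, and the second had only 9.77 in replicate 2 with 64.8 in replicate 3.

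The 75047 bp between NijA, a ninjurin gene, and CG43245 held 4 members, and the farthest of them from any start lay 36698 bp away. From left to right their signal values were 96.45, 168, 124 and 64.2 in the pooled list. Replicate 2 gave 35.7, 45.8, 57.4 and 19.9, and replicate 3 gave 59.5, 118, 65.5 and 45.8. The replicates differed in which one was highest. A gap of 32964 bp between tRNA:Ile-TAT-1-2 and CG13898 held 3 members, at 108, 112 and 182. A gap of 19063 bp between lncRNA:CR44363 and CG7560 held 3 as well, at 71.6, 94.6 and 189. By genes of any kind, pairs stood in the gaps at foxo (229 and 155), noc (189 and 131), scyl (142 and 82.9), zfh2 (102 and 66.5) and Tollo (67.6 and 64.8). The pair at noc lay between lncRNA:CR45303 and lncRNA:CR45693. By protein-coding genes alone, the gap between noc and CG33648 held 3 members, the remaining one at 104. Members within a gap share their genes and, where regions overlap, their sequence: 4 members, in the scyl gap and in the gap between dnc and Myc on X, overlapped another.

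**Figure D3:**
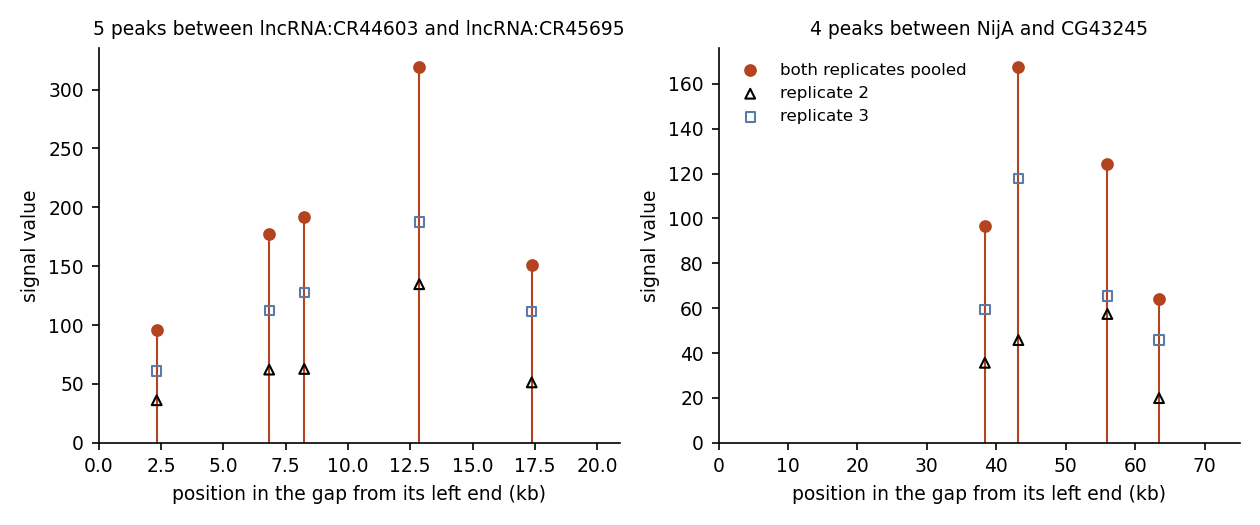
Signal value (y axis) of the intergenic peaks in the 2 gaps with 4 or more of them, by position from the left end of the gap in kb (x axis). Filled circles are the pooled list, triangles replicate 2 and squares replicate 3, and in the gap near chinmo both replicates were highest at the fourth peak.

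The nearest start belonged to a non-coding RNA gene at 73 members (29.1%), against 6.22% of the other IDR peaks. Weaker intergenic regions had 30.1%, close to the share of the members. A protein-coding start was nearest at 173 members, a tRNA start at 4 and a pseudogene at 1. The summit was upstream of the nearest start at 68.9%. Members lie in no gene, so a downstream summit must lie past the end of that gene, and the share was in part built in.

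Gene lists were counted on the nearest start. Of 124 homeodomain and patterning transcription factor genes in the annotation, 11 had a member nearest to their start, which is 4.38% of the members. In the other IDR peaks the list accounted for 25 of 2782, or 0.899%. In the weaker intergenic regions it was 3.45%. These genes were slp2, Sox21a, vvl, zfh2, Doc2, ems, Hr38, bin, disco-r, D and oc. Among them ems and oc pattern the head, slp2 the segments and bin the visceral mesoderm, while Hr38 encodes a nuclear receptor. The slp2 peak, 4345 bp upstream in the gap between the paralogs slp1 and slp2, had 165 in the pooled list, 62.7 in replicate 2 and 101.5 in replicate 3. The peak between the paralogs Sox21a and Sox21b had 154, 55.1 and 101.4. The vvl peak stood 26271 bp from the start, at 105.2. The share of the members was closer to that of the weaker intergenic regions than to that of the other IDR peaks.

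Other lists had few members. Neuronal surface and guidance genes had 5 peaks (1.99%), at dpr20, unc-5, robo2 and Tollo, against 0.935% of the other IDR peaks and 1.69% of weaker intergenic regions. Chromatin and Polycomb genes had 2, at ph-d and Su(z)2, or 0.797%, against 1.33% of the other IDR peaks and 0.255% of weaker intergenic regions. The ph-d peak lay in the 2923 bp between the duplicate Polycomb group genes ph-d and ph-p and had 167 in the pooled list, 71.25 in replicate 2 and 96.3 in replicate 3. Signalling genes had 2, at Wnt4, in the gap to wg, and at ptc, the Hedgehog receptor gene, or 0.797% against 0.467% of the other IDR peaks and 0.970% of weaker regions. Proneural and Notch target genes had 1 (0.398%), at E(spl)malpha-BFM, against 0.072% of the other IDR peaks and 0.204% of weaker regions. The list of chemosensory receptor and odorant binding genes had 2 (0.797%), at Gr89a and ppk, against 0.108% of the other IDR peaks and 2.30% of weaker regions. Lists were matched on gene symbols, so a listed gene, such as ppk, need not have the named role. Cuticle genes had 2, at Cpr76Ba and Cpr65Eb, against 0.18% and 1.02%, and detoxification genes 2, at Cyp28d1 and Cyp6v1, against 0.216% and 0.715%. Ribosomal protein genes had 0 of 251, against 73 of 2782 other IDR peaks (2.62%) and 0.562% of weaker intergenic regions. Most other IDR peaks lie near starts, which the rule leaves out, and the share of the weaker regions is too low for a count of 0 to be read as a difference. MicroRNA, small nuclear and nucleolar RNA, protease, germ line and muscle genes also had 0 members. They accounted for 0.036% to 0.467% of the other IDR peaks and 0.102% to 0.485% of weaker regions each, shares too low for a count of 0 among 251 to be read as a difference.

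Intergenic summits were poor in G and C. Within 50 bp of the summit the median GC content was 34.7% (33.7 to 36.6, n = 251), against 42.6% (42.6 to 43.6) for the weaker intergenic regions and 40.8% for the whole territory. For IDR peaks near starts it was 38.6% (37.6 to 38.6) and in gene bodies 33.7% (33.7 to 34.7). Members ranged between 19.8% and 71.3%, and 24.3% of them were under 30% GC, against 10.8% of the weaker intergenic regions. The stronger 125 members had 35.6% and the weaker 126 had 34.7%. The 251 strongest of the weaker intergenic regions had 35.6% (34.7 to 36.6), so the low GC content extended below the IDR threshold and was not particular to peaks that passed. Across 10 bp bins the mean GC content of the members was 37.45% at the summit, 42.3% at 200 bp to its left and 41.8% at 200 bp to its right, while the weaker regions stayed between 41.5% and 43.0%.

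**Figure D4:**
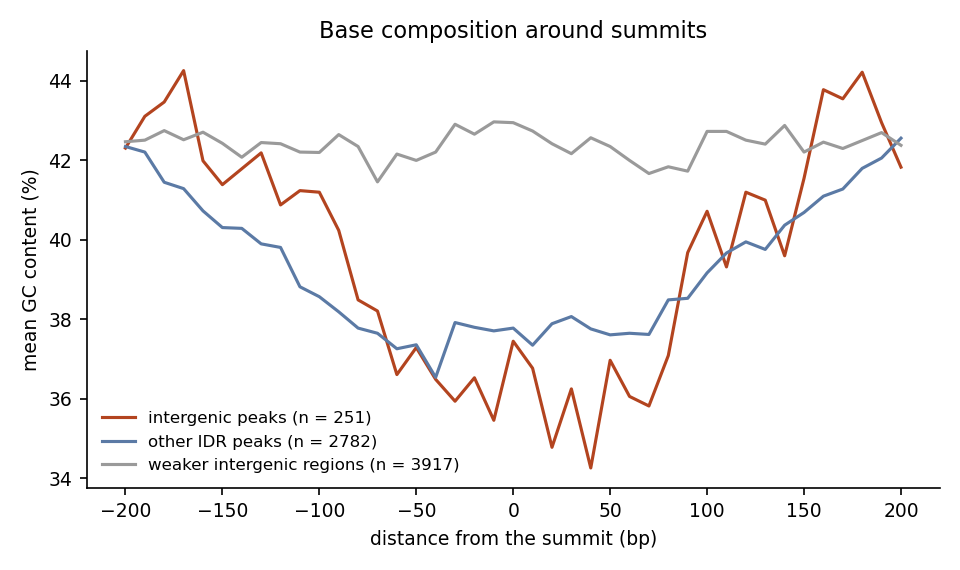
Mean GC content in 10 bp bins around the summit for intergenic peaks, other IDR peaks and weaker intergenic regions. Both sets of IDR peaks dip around the summit, and the weaker intergenic regions stay flat.

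Few summits of the members lay in repeats or transposable elements, while nearly every region touched masked bases. A summit lay in soft-masked sequence in 28 members (11.2%, 7.54 to 15.7), against 15.9% of the other IDR peaks and 15.7% of weaker intergenic regions, where the territory was masked over 26.6% of its bases. The difference from the other IDR peaks was -4.73 percentage points (-8.34 to -0.05) and from the weaker intergenic regions -4.55 (-8.07 to 0.083). Any overlap of the whole region with soft-masked bases held for 93.2% of the members, 92.6% of the other IDR peaks and 93.8% of weaker intergenic regions. The median masked share of a region was 15.1% (13.6 to 16.6), against 16.3% (16.1 to 16.8) and 15.1% (14.9 to 15.6). A transposable element held the summit of 1 member (0.398%), near ed, and overlapped 3, each an INE-1 element, while such elements cover 10.8% of the territory. Such summits were as rare elsewhere, at 0.945% of weaker intergenic regions and 0.18% of the other IDR peaks. The sources used here do not say how reads in repeats were treated.

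Words known from fly promoters and transcription factors were searched within 50 bp of the summit on both strands, 32 in all, and a word was called when the Newcombe interval of the difference in share, widened to 99.8% for the 32 words, left out 0. Against the other IDR peaks 1 word was called (3.12% of those tested). The E-box CAGCTG, a site of basic helix-loop-helix factors, occurred in 1.20% of the members and 6.08% of the other IDR peaks, a difference of -4.88 percentage points (-6.74 to -0.0048). Its share was 7.29% in peaks near starts, 3.30% in gene bodies and 4.42% in weaker intergenic regions. The interval reached almost to 0, and the call was lost with the strongest regions of either replicate alone, where the difference was -4.22 points (-6.19 to 0.72) in replicate 2 and -3.32 (-5.71 to 2.53) in replicate 3.

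The words of housekeeping promoters were scarce at the members, as they were in gene bodies and in weaker intergenic regions. The rule leaves out summits within 500 bp of a start, so the contrast with peaks near starts was in part built in. DRE (TATCGATA, bound by DREF), occurred in 0.398% of the members, against 4.604% of the IDR peaks near starts and 0.281% of weaker intergenic regions. Core promoter motif 7 (CAGCNCTA or CATCNCTA) occurred in 0.797%, against 6.73% near starts and 1.40% of weaker intergenic regions. The related word CAACACTG occurred in 0.797%, against 5.74% near starts and 0.255% of weaker regions. The M1BP word GGTCACAC occurred in 0.398%, against 2.48% and 0.128%. At least 1 of these 4 was found at 6 of the 251 members (2.39%, 0.882 to 5.13), 345 of the 1933 peaks near starts (17.85%, 16.2 to 19.6), 11 of the 849 in gene bodies (1.30%) and 81 of the 3917 weaker intergenic regions (2.07%, 1.65 to 2.56). The 4 words were put together after their values were seen. Single words did not pass the widened interval against all other IDR peaks, and with 251 members a share of under 1% rests on 1 or 2 regions.

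Against the weaker intergenic regions 1 word was called (3.12% of those tested). TGCATA, the core of a Su(Hw) insulator site in its short form, occurred in 12.75% of the members and in 7.05% of the weaker regions, a difference of 5.70 percentage points (0.26 to 13.9). It also stood in 9.54% of the peaks in gene bodies and 7.55% of those near starts. The word alone is short and does not make a Su(Hw) site. In the 251 strongest weaker regions it was found in 11.2%, a difference of 1.59 points (-7.84 to 11.1). GATA sites, the bases GATA after A or T and before A or G, occurred in 21.9% of the members, against 15.3% of the weaker regions, and were not called. With 100 bp on each side they were at 38.25% and 28.7%, a difference of 9.53 points (0.155 to 19.75), which was called. Of the words not called in either comparison, the TATA box TATAAA was at 13.1% of the members and 11.4% of the weaker regions, the Pho core GCCATT at 7.57% and 8.27%, and the Zelda site CAGGTAG at 0.797% and 0.357%. The interval of each of these differences holds 0, which does not show that the shares are equal.

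A search over all words of 6 bases was added after the data were seen. The 10 leading words on 2L and 2R against the weaker intergenic regions there were measured on the other arms, with intervals widened to 99.5%, and 1 of them was called, 10% of those tested. This word, AAGATT, was found at 22 of 146 members on the held-out arms (15.1%) and at 113 of 2449 weaker regions (4.61%), a difference of 10.5 percentage points (3.82 to 20.6). Against the weaker regions on these arms that are among the 251 strongest, which held it in 8.23%, the difference was 6.84 points (-3.70 to 17.8), and the call was lost. On 2L and 2R, where the 10 words were chosen, it was in place 5 and stood at 16.2% and 5.45%. A match can share bases with a GATA site, and neither word holds the other. In the reverse search, with 3L, 3R, 4 and X used for choosing, it came first. These are the arms on which it was called, so this place is not separate support. Over all arms it was at 39 of 251 members (15.5%, 11.3 to 20.6), 124 of 1933 peaks near starts (6.41%, 5.364 to 7.601), 74 of 849 in gene bodies (8.72%, 6.91 to 10.8) and 193 of 3917 weaker intergenic regions (4.93%, 4.27 to 5.65). Against the other IDR peaks on the held-out arms the difference was 8.13 points (1.35 to 18.3). That call was lost with 100 bp on each side (8.03, -0.235 to 19.1), after weighting to the members' GC content (7.53, -0.978 to 16.05) and in the strongest regions of replicate 3 alone (5.36, -0.74 to 15.5).

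The 10 leading words were chosen without the held-out arms, so the split of AAGATT by GC content and signal is given there. AAGATT was singled out of the 10 by its call on these arms, so its shares there may be too high. Where the window held 35% GC or more it was at 9 of 73 members (12.3%, 5.80 to 22.1) and at 3.49% of the weaker intergenic regions (2.70 to 4.43). Below 35% GC it was at 13 of 73 members (17.8%, 9.84 to 28.5) and at 8.18% of the weaker regions (6.09 to 10.7), with overlapping intervals. It was at 11 of 74 members from the stronger 125 (14.9%) and at 11 of 72 from the weaker 126 (15.3%). On the held-out arms it ran from 6.25% on X to 18.1% on 3L, leaving out chromosome 4 with 4 members. Over all arms, matches lay a median of 23.5 bp from the summit, 22 of 39 within 25 bp, so they were spread over the window. Other members with the word included the strongest of all, near Su(z)2, and those at lola, dpr20, Srp54k, unc-5, stv, ppk and lmd. In the strongest regions of replicate 2 alone it was at 12.6% of the intergenic ones on the held-out arms and 5.92% of the others, and in replicate 3 alone at 11.9% and 6.58%.

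**Figure D5:**
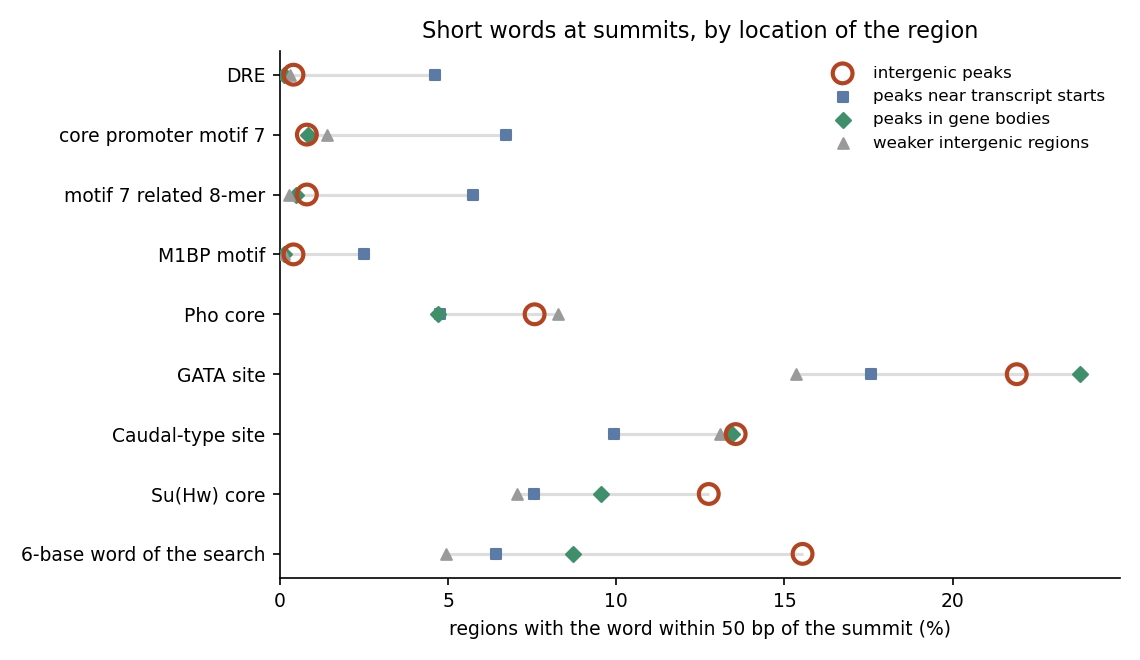
Share of regions (x axis, %) with each of 9 words within 50 bp of the summit, for intergenic peaks, peaks near transcript starts, peaks in gene bodies and weaker intergenic regions. Intergenic peaks lie beside gene bodies and weaker regions for the 4 housekeeping promoter words, and stand highest for the 6-base word, AAGATT, at 15.5%, a value that includes the arms on which the word was chosen.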

How the data were processed

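The authors deposited peak lists in narrowPeak form on dm6, with a signal value, a −log10 q-value and a summit offset per region. Per the file manifests, each replicate list came from its own alignment and 1 undescribed further input, the pooled list from both alignments, and the IDR peaks from these 3 lists. The deposited −log10 q-values took 1 value in all IDR peaks and were not used. The offset, a number of bases given by the authors, placed the summit. Aligner, peak caller and IDR threshold are not given in the sources used here. Lists on dm3 were not used.

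Genes and transcripts were those of Ensembl 115 (BDGP 6.54, 18164 genes, 5809 transposable elements left out), and sequence came from the RefSeq genome of the same assembly, with equal arm lengths. Positions are 1-based. Overlap meant at least 1 bp. Shares carry exact (Clopper-Pearson) intervals, differences Newcombe intervals, medians order-statistic intervals and densities exact Poisson intervals, at 95%. Regions of a list share their 2 libraries, so no p-value was computed, and intervals cover counting over regions only. Replicates are separate biological replicates by number in the labels. Named members are the 20 strongest, 5 weakest, 5 farthest from a start, those at the limit, the 2 most discordant, up to 4 per gene list and those sharing a gap with 2 or more others; further names were chosen after their values were seen. The members, 16 gene lists and 32 words were chosen with earlier results of these data known. Scripts used Python 3.11.15, numpy 2.4.6, pandas 2.3.3 and scipy 1.17.1 and were tested on simulated data.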

Additional observations from a re-analysis of the deposited data

How the results depend on the processing

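No paired analysis was possible because there was 1 group. A distance of 200, 1000 or 2000 bp from starts gave an intergenic share of 14.3%, 6.07% and 4.15%, a density of 11.2, 5.47 and 4.33 per Mb, and a passing share of 8.62%, 5.15% and 4.59%. At 200 bp the median signal percentile was 48.6, and at 2000 bp the median GC content was 33.7%. With protein coding genes only, the share was 10.4%, the density 7.87 per Mb and the percentile 45.5. A window of 100 bp on each side gave a GC content of 36.3%. Any overlap of the region with soft-masked bases held for 93.2% of the members. The strongest regions of each replicate alone gave an intergenic share of 7.68 to 8.54%, a percentile of 39.6 to 46.7, a GC content of 35.6 to 36.6%, and 0 called words against other regions in both. RefSeq genes gave the same 251 members.

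Word calls were the least stable results. Against other IDR peaks, 3 words were called with 100 bp on each side, 5 after weighting to the members' GC content, and 0 at 1000 bp from starts or in the stronger 125 members; the DRE and motif 7 words were lower in the 100 bp and GC-weighted comparisons. Against weaker intergenic regions, 2 words were called with 100 bp, 2 in the stronger 125 members, 1 after GC weighting, and 0 at 1000 bp or against the strongest weaker regions. The words called were GATA and the run of 8 A or T with 100 bp, and TGCATA and the Ets site in the stronger 125 members. After GC weighting the called word was the run of 8 A or T, lower in the members (62.15% against 72.4%, -10.3, -20.2 to -0.355), where unweighted it was 9.76 points higher and not called. GC-weighted intervals are normal ones, which differ from Newcombe intervals for rare words. The E-box lost its call at 1000 bp (-5.46 points), in the stronger 125 members (-4.48) and with either replicate alone (-4.22 and -3.32), against -4.88 as reported. TGCATA lost its call with 100 bp (5.09), 1000 bp (4.85) and GC weighting (4.51), against 5.70 as reported. In most of these the difference was about as large and the interval reached past 0. AAGATT against weaker regions on the held-out arms kept its call with 100 bp (10.2 points) and GC weighting (8.75), and lost it against the strongest weaker regions (6.84, -3.70 to 17.8). Against other peaks (8.13) it lost it with 100 bp (8.03), GC weighting (7.53) and without replicate 2 (5.36). The cause was not tested. The lists hold no reads, so depth limits cannot be stated.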
